A study of Mus musculus with 38 samples.

Results

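The genes described here are 39 mouse genes for chaperones and oxidative folding enzymes of the endoplasmic reticulum (ER). They were taken from a list of symbols, which the files give in capitals (HSPA5, HSP90B1, CALR, TXNDC5 and so on, written Hspa5, Hsp90b1, Calr and Txndc5 from here on), and looked up in every RNA library of the study. Of the 39, 38 were present among 11441 genes in the 8 libraries of the differentiation and Blimp1 experiment, where Fkbp14 was not listed. All 39 were present among 20650 genes in the values of the inhibitor experiment and of plasma cells.

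The study followed mouse B cells on their way to antibody secretion and asked what depends on Blimp1, a transcriptional repressor encoded by Prdm1. RNA was measured in 14 of its 38 samples, in 7 groups of 2 libraries, and the 24 chromatin samples are not analysed here. All cells were of C57BL/6 background and carried 1 Blimp1 allele with a green fluorescent protein (GFP) reporter, so every control cell is itself heterozygous. In all cultured groups, cells were taken after 4 days with lipopolysaccharide (LPS), a bacterial product that activates B cells. Cells of the genotype Blimp1(GFP/+) Cd23(Cre/+) were sorted into 3 stages. Those without CD138 or GFP are called activated B cells here, those with GFP but no CD138 pre-plasmablasts, and those with both plasmablasts. Blimp1-deficient pre-plasmablasts were Blimp1(GFP/fl) Cd23(Cre/+), in which a Cre recombinase expressed from the B cell gene Cd23 deletes the floxed allele. They were sorted as CD138– GFP+ CD22hi, so that genotype and sorting gate differ together from the control pre-plasmablasts. For the inhibitor experiment, Blimp1(GFP/+) cultures received GSK343, a compound that blocks the histone-modifying enzyme EZH2, or the solvent DMSO, and cells with GFP but no CD138 were sorted. Plasma cells (CD28+ CD138+ GFP+ Lin–) came directly from Blimp1(GFP/+) mice. The labels do not say whether both libraries of a group came from separate mice or cultures, and the p-values therefore measure the spread between libraries, which may be technical.

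Secreted and membrane proteins enter the ER unfolded. There, Hsp70 and Hsp90 family chaperones with their J-domain partners hold and refold them, the lectin chaperones calnexin and calreticulin bind their glycans, and protein disulfide isomerases form and reshuffle their disulfide bonds with oxidizing power supplied by Ero1 oxidases. Prolyl isomerases speed the turning of proline bonds. Antibodies carry many disulfide bonds and are made in very large amounts by plasma cells, whose ER is greatly expanded. The unfolded protein response, with its transcription factors XBP1, ATF6 and ATF4, is known to raise many of these genes, in part through promoter sequences called ER stress response elements.

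Levels are given as RPKM (reads per kilobase of gene model, scaled to the library's depth), first library then second, and differences are log2 fold changes of RPKM + 1 with their standard error (SE). A gene was called where limma's Benjamini-Hochberg adjusted p over all genes tested was below 0.05. The number of reads behind the values is not known. Between 9744 and 10077 genes reached 1 RPKM in each of the 8 libraries of the differentiation and Blimp1 experiment, and between 9188 and 9910 in the other 6. Prdm1 stood at 7.45 and 10.7 RPKM in activated B cells, 429 and 327 in control pre-plasmablasts, 363 and 289 in plasmablasts and 199 and 171 in the Blimp1-deficient libraries. The gene's RPKM does not separate the GFP and floxed alleles from an intact one, so it checks the deletion only in part. Sdc1, which encodes CD138, was at 0.408 and 0.584 RPKM in activated B cells, 32.7 and 30.4 in plasmablasts and 779.7 and 753 in plasma cells. Cd3e, a T cell marker, was listed at 0 in all 4 inhibitor libraries and was not among the genes of the 8 first ones. It does not stand for its list: 9 T cell markers summed to between 50.9 and 53.3 RPKM with DMSO and 39 and 45.5 with GSK343. In each of these groups 7 of the 9 were under 1 RPKM in both libraries. Of the 2 markers that limma tested under GSK343, 1 was called higher and 1 lower.

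Most ER folding genes were far higher in pre-plasmablasts than in activated B cells. Of the 37 members tested, 31 were called higher and 1 lower, against a background of 20.2% of all 10473 genes called higher and 28% called lower (48.2% either way). The median change was 2.00 on the log2 scale over the 37 members and -0.12 over all genes. Every tested member of the Hsp70 and Hsp90 group (8 of 8), the J-domain cochaperones (5 of 5), the lectin chaperones (2 of 2) and the thiol oxidases (3 of 3) was called higher. Of the disulfide isomerases and thioredoxin-like proteins, 8 of 12 were called higher and 4 did not pass. The same test gave 2 of 3 prolyl isomerases higher, and 3 of 4 other folding factors higher with Cnpy3 lower. Pdia5 was too low to be tested. In the 8 libraries of the differentiation and Blimp1 experiment, the library numbers fall into 2 series, each with 1 library of every group there. The differences within each series were alike: 35 of 37 members were above activated B cells in either series, with median differences of 2.02 and 1.98.

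**Figure D1:**
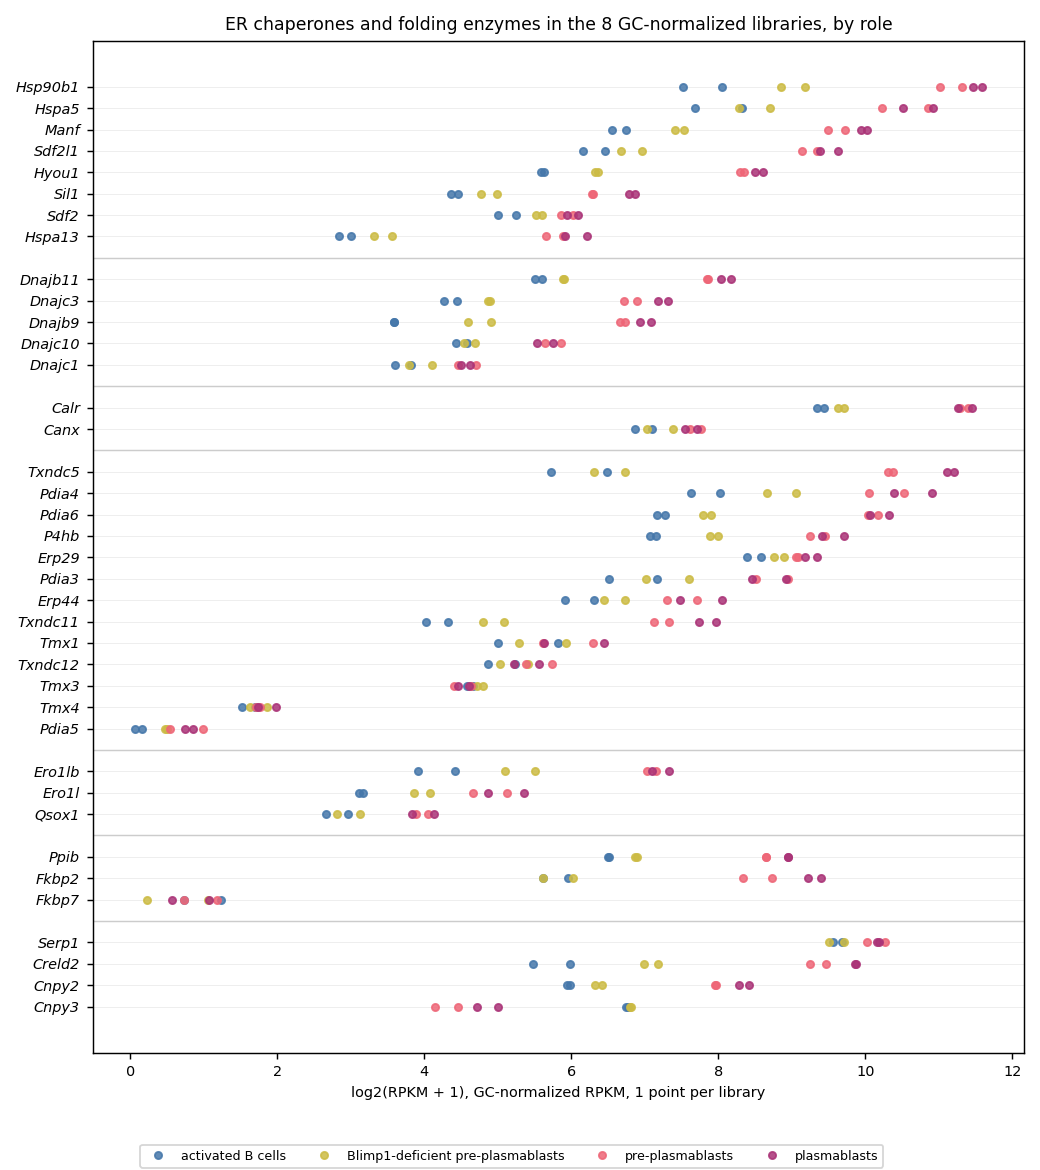
Level of each member in the 8 libraries of the differentiation and Blimp1 experiment, as log2(RPKM + 1) on the horizontal axis, grouped by role from Hsp70 and Hsp90 chaperones at the top to other folding factors at the bottom; each point is 1 library and colours mark the 4 groups. In most rows both pre-plasmablast and both plasmablast points lie to the right of the activated and Blimp1-deficient points, and in the Cnpy3 row they lie to the left.

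The promoters of several of these genes carry the ER stress response element (ERSE), here CCAAT and CCACG with exactly 9 bases between them, searched on both strands in RefSeq windows of 300 bases (250 before to 50 after each transcription start, GRCm38.p6; the submitters' processing notes name mm9). Windows were found for 33 of the 39 members (41 windows). The exact element was in 8 of these 33 genes, against 0.137% of all 27025 genes with a window and 0.119% of all 32851 windows. The elements are shown because they are what these members share in sequence, with capitals marking the CCAAT and CCACG boxes, 5′ to 3′ on the strand given:
Hspa5 (chr2:34772017-34772051, + strand): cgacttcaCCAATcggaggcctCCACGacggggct
Hsp90b1 (chr10:86705630-86705664, - strand): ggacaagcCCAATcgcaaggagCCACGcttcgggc
Hsp90b1 (chr10:86705525-86705559, + strand): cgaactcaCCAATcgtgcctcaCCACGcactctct
Calr (chr8:84847067-84847101, + strand): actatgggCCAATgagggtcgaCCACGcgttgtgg
Canx (chr11:50325792-50325826, - strand): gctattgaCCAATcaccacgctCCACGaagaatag
Pdia6 (chr12:17266483-17266517, + strand): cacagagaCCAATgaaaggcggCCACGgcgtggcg
Dnajc3 (chr14:118937819-118937853, + strand): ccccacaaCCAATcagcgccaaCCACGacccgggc
Creld2 (chr15:88819512-88819546, - strand): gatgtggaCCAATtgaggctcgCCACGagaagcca
Ero1lb (chr13:12565674-12565708, - strand): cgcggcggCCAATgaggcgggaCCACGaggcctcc
Hsp90b1 carried 2 elements and the others 1 each. The 8 genes were all called higher in pre-plasmablasts, with a median change of 2.71. A match describes the letters only, and of the 6 other tested genes with an exact element in their window 3 were called higher (Derl3, Syvn1 and Alg12), 2 lower (Adcy3 and Pan2) and Hnrnpa3 was not called. These 6 were named after their values were seen.

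Related elements stood in 3 further members. The compact ERSE-II is ATTGG, 1 base of any kind, then CCACG, and was found in 0.0444% of genes with a window. It was in Dnajb11 from 8 to 18 bases after its start. The UPRE core (TGACGTGG), found in 0.714% of genes with a window, was in Txndc11 and Txndc5. Txndc5 was the member with the largest change. Capitals mark the matched letters:
Dnajb11 (chr16:22857846-22857868, + strand): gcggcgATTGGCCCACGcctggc
Txndc11 (chr16:11134621-11134640, - strand): tgtggcTGACGTGGagagtc
Txndc5 (chr13:38528039-38528058, - strand): cgccgcTGACGTGGcgctag
All 11 members with any of these elements were called higher, with a median of 2.88 and a range from 0.71 to 4.24. Of the 22 members with a window and none of them, 20 were tested, 15 were called higher and 1 lower, with a median of 1.32. Outside the members, 5 genes with an ERSE-II were tested, of which 3 were called higher and 0 lower. For the UPRE core, 79 other genes were tested, of which 35 were called higher and 12 lower. Whether the elements bear on the changes was not tested. The short core ACGTGG was in 11 of 33 members and 9.4% of all genes with a window, and it overlaps the UPRE core. Of 994 other tested genes with this core, 263 were called higher and 262 lower. The CCAAT box alone was in 25 of 33 members and 41.1% of genes with a window. Of 3142 other tested genes with the box, 649 were called higher and 923 lower. The ATF4 letters TGATGCAA were in 1 member, Cnpy2, and 1.03% of genes with a window. No window was available for Hyou1, Hspa13, Sil1, Manf, Erp29 and Tmx3.

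The upstream sequences of the main ER Hsp70 and Hsp90 genes and of the member that fell are shown in full for comparison, 250 bases ending at the base before the start, with CCAAT boxes and the CCACG boxes of ERSEs in capitals (ATTGG and CGTGG where they lie in reverse):
Hspa5 (chr2:34771840-34772089, + strand): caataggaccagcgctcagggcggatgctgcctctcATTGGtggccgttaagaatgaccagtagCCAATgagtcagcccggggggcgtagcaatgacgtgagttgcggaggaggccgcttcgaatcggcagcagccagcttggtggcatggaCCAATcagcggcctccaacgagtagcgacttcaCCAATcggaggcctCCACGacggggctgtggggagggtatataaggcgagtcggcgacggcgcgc
Hsp90b1 (chr10:86705445-86705694, - strand): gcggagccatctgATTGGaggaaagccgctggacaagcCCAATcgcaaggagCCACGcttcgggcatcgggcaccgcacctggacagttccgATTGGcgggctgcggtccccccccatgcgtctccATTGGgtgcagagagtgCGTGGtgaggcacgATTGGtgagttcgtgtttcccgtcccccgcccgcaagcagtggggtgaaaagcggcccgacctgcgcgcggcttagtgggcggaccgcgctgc
Cnpy3 (chr17:46752215-46752464, - strand): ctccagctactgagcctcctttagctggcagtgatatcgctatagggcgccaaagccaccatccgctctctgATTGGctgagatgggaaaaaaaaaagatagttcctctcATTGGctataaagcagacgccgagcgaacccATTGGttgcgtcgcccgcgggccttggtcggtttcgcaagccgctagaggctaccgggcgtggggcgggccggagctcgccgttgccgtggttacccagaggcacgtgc
Hspa5 has 4 CCAAT boxes in this stretch, 1 of them in reverse, and 1 exact ERSE, from 65 to 47 bases before the start. Hsp90b1 has 5, of which 4 are in reverse, and 2 exact ERSEs. Cnpy3 has 3 CCAAT boxes, all in reverse, and no exact ERSE. ERSEs that differ by any letter were not searched for, so these counts can miss some.

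All 8 Hsp70 and Hsp90 chaperones and their partner and exchange factors rose in pre-plasmablasts. Hspa5 (BiP), the main ER Hsp70, was at 204 and 318 RPKM in activated B cells, 1194.5 and 1851 in pre-plasmablasts and 1454 and 1940.5 in plasmablasts. The pre-plasmablast and plasmablast ranges overlapped and both lay above the activated libraries, of which the second was the higher. The change from activated B cells to pre-plasmablasts was 2.54 ± 0.31 (SE, limma adjusted p = 0.000773). Hsp90b1 (Grp94), the ER Hsp90 that folds Toll-like receptors and integrins, went from 183 and 263 to 2063 and 2537 and 2833 and 3078 RPKM in the same order of groups. It had the largest change of this role, 3.37 ± 0.21 (adjusted p = 5.55e-05), and the 3 groups did not overlap. Manf, a secreted ER stress protein that binds BiP, rose by 2.96 from 92.7 and 106 to 717 and 848 RPKM. Sdf2l1, part of a BiP complex with Dnajb11, rose by 2.92 from 70.7 and 87.2 to 560.5 and 646 RPKM, while its close relative Sdf2 had the smallest change of the role, 0.82 ± 0.12, from 37 and 31 to 63.9 and 57.1. The ratio of Sdf2l1 to Sdf2 RPKM was 2.36 in activated B cells and 10.0 in pre-plasmablasts. Hyou1 (Grp170) and Sil1, which exchange nucleotide on BiP, rose by 2.72 and 1.87, and Hspa13, a divergent Hsp70, by 2.85 from 7.02 and 6.13 RPKM.

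Among the J-domain cochaperones, which pass clients to BiP, Dnajb9 (ERdj4) changed most. It stood at 11.1 and 11.1 RPKM in activated B cells, 105 and 100.5 in pre-plasmablasts and 134 and 122 in plasmablasts, a change of 3.11 ± 0.12 from the first to the second (adjusted p = 1.54e-05). All 3 groups were separate, in that order. Dnajc3 (p58IPK) and Dnajb11 (ERdj3) rose by 2.45 and 2.30, and Dnajc10 (ERdj5), a disulfide reductase with a J domain, by 1.25. Dnajc1 had the smallest change of the role, 0.87 ± 0.15 (adjusted p = 0.00374), from 11.1 and 13.1 to 21 and 25.1 RPKM.

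Both lectin chaperones rose. Calreticulin (Calr), the soluble one, rose from 691 and 647 to 2684 and 2498 RPKM, by 1.95 ± 0.12 (adjusted p = 4.86e-05). Calnexin (Canx), anchored in the membrane, rose from 136 and 116 to 217 and 195, by 0.71 ± 0.15 (adjusted p = 0.00808), and its call was lost without the second activated library (adjusted p = 0.0503). The ratio of Calr to Canx RPKM was 5.35 in activated B cells and 12.6 in pre-plasmablasts.

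The disulfide isomerases held both the member with the largest rise and most of those that did not pass. Txndc5, a thioredoxin-domain isomerase also called ERp46, was at 52 and 88.7 RPKM in activated B cells, 1335 and 1272 in pre-plasmablasts and 2362 and 2211 in plasmablasts. No groups overlapped, and the change to pre-plasmablasts was 4.24 ± 0.25 (adjusted p = 4.94e-05), or 18.9-fold. Txndc11, a thioredoxin-domain protein known as a partner of DUOX oxidases, rose by 3.06 from 15.2 and 19 to 138.5 and 159.7 RPKM. The classical isomerases rose as well: Pdia6 by 2.88, Pdia4 by 2.46, P4hb (PDI itself) by 2.24, and Pdia3 (ERp57, the partner of calreticulin and calnexin) by 1.90. Erp44, which retains unassembled IgM in the early secretory pathway, rose by 1.39. Erp29, which lacks an active-site cysteine pair, had the smallest called change of the role, 0.59 ± 0.11, from 382 and 335 to 544 and 531 RPKM.

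The 4 isomerase-like members that did not pass were Txndc12 (0.51, adjusted p = 0.0902) and the membrane-bound thioredoxins Tmx1 (0.54, adjusted p = 0.33), Tmx3 (-0.09) and Tmx4 (0.13). Within each library-number series Txndc12 and Tmx1 were higher in pre-plasmablasts, and with the series as a block limma called both (adjusted p = 4.95e-05 and 0.00011), but not Tmx3 or Tmx4. The share of all genes called with the block is not given for this comparison, so these calls cannot be set against it. Txndc12 stood at 36.5 and 28.3 RPKM in activated B cells and 52.5 and 40.9 in pre-plasmablasts. Tmx1 stood at 55.6 and 31 RPKM in activated B cells, 77.9 and 47.8 in pre-plasmablasts, 86.2 and 48.6 in plasmablasts and 60 and 38 in Blimp1-deficient cells, with the second library the lower in all 4 groups. Pdia5 did not reach 1 RPKM in any of the 12 cultured libraries, where it was highest at 0.983 RPKM.

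All 3 thiol oxidases were called higher. Ero1lb, the Ero1 isoform best known from the pancreas, rose from 14 and 20.3 to 129 and 141 RPKM, by 2.93 ± 0.21 (adjusted p = 7.85e-05). Ero1l, the widely expressed isoform, rose from 7.99 and 7.67 to 34 and 24.4 RPKM, by 1.76. The ratio of Ero1lb to Ero1l was 2.20 on average in activated B cells and 4.79 in pre-plasmablasts. Qsox1, a sulfhydryl oxidase of the Golgi and secretory pathway, was lower than both and rose by 1.16 from 6.79 and 5.35 to 15.6 and 13.8 RPKM.

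The prolyl isomerases Fkbp2 and Ppib (cyclophilin B) rose by 2.75 and 2.15. Fkbp2 went from 47.9 and 61 to 321 and 426 RPKM and Ppib from 90.1 and 89.5 to 402 and 401. Fkbp7 was near the lower limit of testing, between 0.662 and 1.36 RPKM in these 4 libraries, and was not called (-0.03, adjusted p = 0.959).

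Of the other folding factors, Creld2, a protein induced by ER stress, rose most, by 3.62 ± 0.18 (adjusted p = 2.67e-05) from 43.7 and 62.4 to 604 and 706 RPKM. Cnpy2 rose by 2.00. Serp1 (RAMP4), a small protein of the translocon, was the most abundant member in activated B cells at 757 and 818 RPKM and had the smallest called rise, 0.52 ± 0.13 (adjusted p = 0.0156), to 1227 and 1037.5. The Serp1 call was lost without the first activated library (adjusted p = 0.0865) or the first pre-plasmablast library (adjusted p = 0.0874).

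Cnpy3, which works with Hsp90b1 in folding Toll-like receptors, went the other way. It was at 108 and 107 RPKM in activated B cells, 16.6 and 20.9 in pre-plasmablasts and 25.4 and 30.9 in plasmablasts. Both later stages lay below the activated libraries without overlap, and the difference of pre-plasmablasts from activated B cells was -2.46 ± 0.14 (adjusted p = 3.79e-05). The ratio of Cnpy2 to Cnpy3 RPKM was 0.572 in activated B cells and 13.4 in pre-plasmablasts.

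The 2 activated B cell libraries differed in their content of secretory transcripts. Igj, the antibody joining chain, was at 7.33 and 118 RPKM in them, and the summed level of 10 antibody-secreting cell markers was 116 and 289 RPKM. Of the 38 members present, 18 were higher in the second library, among them Hspa5, Hsp90b1 and Txndc5, and the median difference between the libraries was -0.01 (log2). Calr, Pdia4 and Tmx1 were higher in the first. In sorted bulk RNA, fewer cells of a type and less RNA per cell cannot be told apart, and the part of such cells in these differences was not tested. The 10 markers, among them Prdm1, whose GFP reporter defined the sorted stages, summed to between 3859 and 5862 RPKM in pre-plasmablasts. There all 10 were called higher, and 7 of 10 B cell markers were called lower and 1 higher. Markers of other cells were higher in the activated libraries: 3 T cell genes summed to between 159 and 211 RPKM against 62.4 and 67.1 in pre-plasmablasts, 2 myeloid genes to between 22 and 28.6 against 3.88 and 4.28, and 3 erythroid genes to between 13.1 and 18.6 against 3.45 and 4.21. Their part in the result was not tested either.

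Summed over the members, the level was 4108 ± 115 RPKM (SD, n = 2) in activated B cells, 17796 ± 361 in pre-plasmablasts and 21715 ± 561 in plasmablasts. The sum made up 0.936% of the RPKM of the genes common to all files in activated B cells, 3.96% in pre-plasmablasts and 4.90% in plasmablasts. In activated B cells Serp1 gave the largest share of the members' sum, 19.2%, and Txndc5 1.70%. In pre-plasmablasts Calr gave 14.6%, Hsp90b1 12.9%, Hspa5 8.53%, Txndc5 7.33% and Serp1 6.37%. Without Hspa5 the log2 ratio of the sums, pre-plasmablasts to activated B cells, was 2.08, against 2.12 with it.

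**Figure D2:**
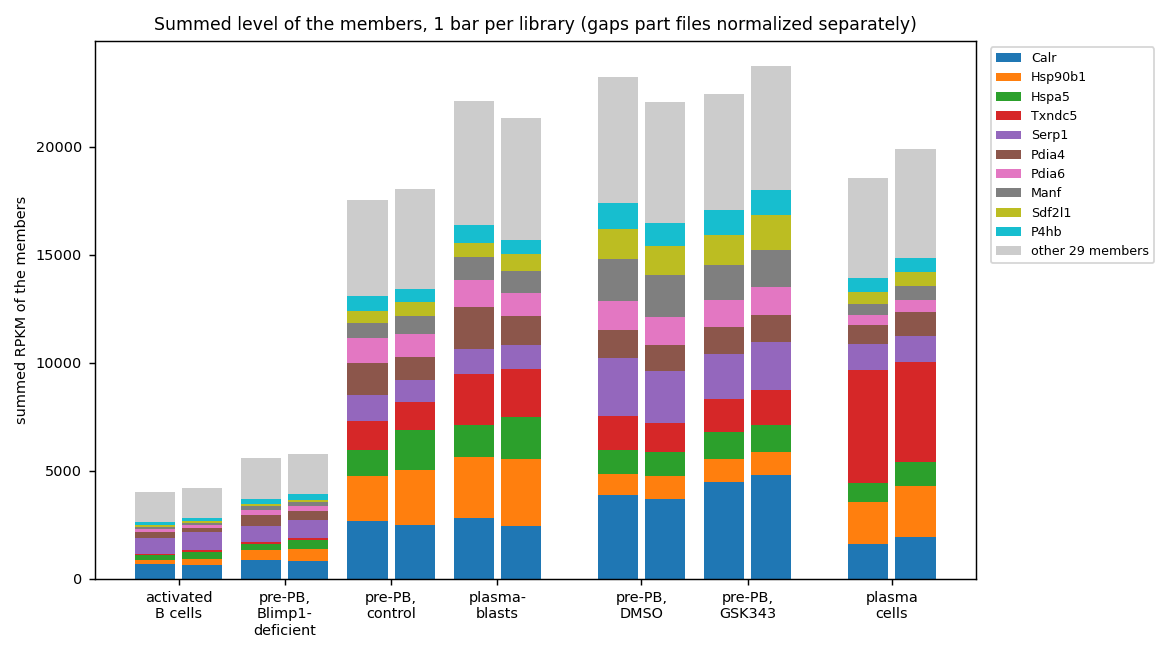
Summed RPKM of the members in each of the 14 libraries (1 bar each, axis from 0), with the 10 members of highest level in colour and the other 29 in grey; wider gaps separate libraries whose values were normalized separately. The bars rise from 4108 RPKM on average in activated B cells to 17796 in control pre-plasmablasts and stand at 5679 in Blimp1-deficient ones, and the Txndc5 segment is largest in plasma cells.

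No member was called between plasmablasts and pre-plasmablasts, in a comparison in which limma called 2.34% of all genes (0.716% higher and 1.62% lower). Of the 37 members, 13 had an unadjusted p below 0.05, all of them higher in plasmablasts, as against 1704 of all 10473 genes, 607 of them higher. With the library-number series as a block, limma called 18 members higher and 1 (Txndc12) lower, and over all 10473 genes 733 higher and 1395 lower. The median change was 0.21 over the members and -0.04 over all genes, and 31 of 37 members were above 0, as were 4294 of all 10473 genes. Within the series, 31 members in the first and 27 in the second were higher in plasmablasts, 26 of them in both. The largest differences were Txndc5 at 0.81 ± 0.25 (adjusted p = 0.186), Fkbp2 at 0.77 ± 0.21 (adjusted p = 0.132) and Txndc11 at 0.63 ± 0.16 (adjusted p = 0.121). For these 3 genes both plasmablast libraries lay above both pre-plasmablast libraries. The same held for 17 of the 37 members in all and 15.8% of all genes. Both libraries lay below for 0 members and 26.4% of all genes. Sil1 came nearest to the threshold, from 77.2 and 76.6 to 116 and 109.5 RPKM (adjusted p = 0.0537), and Calr was at 2684 and 2498 and 2812 and 2456.

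Plasmablasts against activated B cells gave the same counts as pre-plasmablasts did, 31 of 37 members higher and 1 lower, where 21.3% of all genes were called higher and 33.9% lower (55.1% either way). Both comparisons share the activated libraries. The median over the members was 2.42, against -0.18 over all genes. Txndc5 was higher by 5.05, Creld2 by 4.14, Hsp90b1 by 3.74 and Fkbp2 by 3.52, and Cnpy3 was lower (-1.90). The call of Canx was lost without the second activated or the first plasmablast library (adjusted p = 0.0605 and 0.0594), and that of Serp1 without the first activated or the first plasmablast library (0.0622 and 0.0515).

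Blimp1-deficient pre-plasmablasts had much lower levels of the ER folding genes than control pre-plasmablasts. Of 37 members tested, 30 were called lower and 1 higher, against 16.1% of all genes lower and 24.4% higher (40.4% either way). The median was -1.43 over the members and 0.12 over all genes. Within the series, 34 and 35 of the 37 members were lower. The summed level of the members was 5679 ± 129 RPKM (SD, n = 2) in the deficient cells, 0.319 of that in control pre-plasmablasts.

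Txndc5 showed the largest difference. It was at 78 and 105 RPKM in the deficient cells against 1335 and 1272 in the controls, a difference of -3.83 ± 0.25 (SE, limma adjusted p = 0.000109). The deficient libraries were far below the controls and overlapped the activated ones, at 52 and 88.7. Fkbp2 was at 47.8 and 63.8 RPKM in deficient and 47.9 and 61 in activated cells, also overlapping, against 321 and 426 in the controls (-2.72 ± 0.21, adjusted p = 0.000171).

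All 8 Hsp70 and Hsp90 members were lower without Blimp1. Hspa5 was at 309.5 and 415 RPKM (-2.05 ± 0.31, adjusted p = 0.00261) and Hsp90b1 at 462 and 578 (-2.14 ± 0.21, adjusted p = 0.000457). For both genes the deficient and control libraries did not overlap. Sdf2l1 had the largest difference of this role (-2.42) and Sdf2 the smallest (-0.38, adjusted p = 0.0438). The Sdf2 call was lost when any 1 library of the control pre-plasmablasts, deficient pre-plasmablasts or plasmablasts was left out, with adjusted p up to 0.190.

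All 5 J-domain cochaperones were lower, from -0.64 for Dnajc1 to -1.96 for Dnajb11, at 58.7 and 58.2 RPKM. Calr was at 839.9 and 792 RPKM (-1.67) and Canx at 165 and 129 (-0.49, adjusted p = 0.0396). Of the 12 disulfide isomerases 7 were lower: Txndc5, Txndc11 (-2.29), Pdia6 (-2.26), Pdia4 (-1.43), Pdia3 (-1.42), P4hb (-1.41) and Erp44 (-0.92). Erp29 (-0.25, adjusted p = 0.12) and the 4 that had not passed before were not called. With the library-number series as a block, Erp29, Txndc12 and Tmx1 were called lower (adjusted p = 0.00503, 0.000599 and 0.00174) and Tmx3 higher (0.0476). The block also called many more of all genes in this comparison, with counts given in the last section. Ero1lb was at 33.3 and 44.4 RPKM (-1.79), Ero1l at 15.9 and 13.5 (-0.93) and Qsox1 at 7.71 and 6.02 (adjusted p = 0.0046). Creld2 (-2.27), Cnpy2 (-1.59), Ppib (-1.77) and Serp1 (-0.53) were lower as well. Besides Sdf2, 6 members lost their call without single libraries. Canx lost it without either control, either plasmablast or the second deficient library (adjusted p up to 0.181), and Erp44 without the first control or either deficient library (up to 0.126). Serp1 lost it without the first control or first deficient library (up to 0.0945), Ero1l without the first control or second deficient library (up to 0.0767), and Dnajc1 and Pdia3 without the second control or first deficient library (up to 0.0872 and 0.0680).

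Cnpy3 was again the exception. It was at 111 and 112 RPKM without Blimp1, against 16.6 and 20.9 in the controls and 108 and 107 in activated B cells. The deficient libraries lay just above the activated ones and far above the control pre-plasmablasts, a difference of 2.51 ± 0.14 (adjusted p = 6.22e-05).

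Compared with activated B cells, the Blimp1-deficient cells had 17 of 37 members called higher and 0 lower, where 10.4% of all genes were called higher and 7.6% lower (18% either way). The median over the members was 0.44, against 0.00 over all genes. Of the 37, 21 had an unadjusted limma p below 0.05, all of them higher, as against 3260 of all 10473 genes, 1740 of them higher. The largest differences were Creld2 at 1.35 ± 0.18 (adjusted p = 0.00392), from 43.7 and 62.4 to 126 and 143 RPKM, Hsp90b1 at 1.23, Dnajb9 at 1.16, Ero1lb at 1.14 and Pdia4 at 1.03. The 8 called Hsp70, Hsp90 and J-domain members were Hsp90b1, Hyou1, Manf, Sil1, Sdf2, Dnajb9, Dnajc3 and Dnajb11. Txndc5 (0.41, adjusted p = 0.351) and Hspa5 (0.49, adjusted p = 0.355) were not called, and neither was Fkbp2 (0.03). The count depended on single libraries: it was 5 without the first activated or the second deficient library and 8 without the second activated or the first deficient library. Adding the library-number series as a block raised it to 28, all higher, with 2319 of all genes called higher and 2158 lower, and fitting only these 2 groups gave 10.

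**Figure D3:**
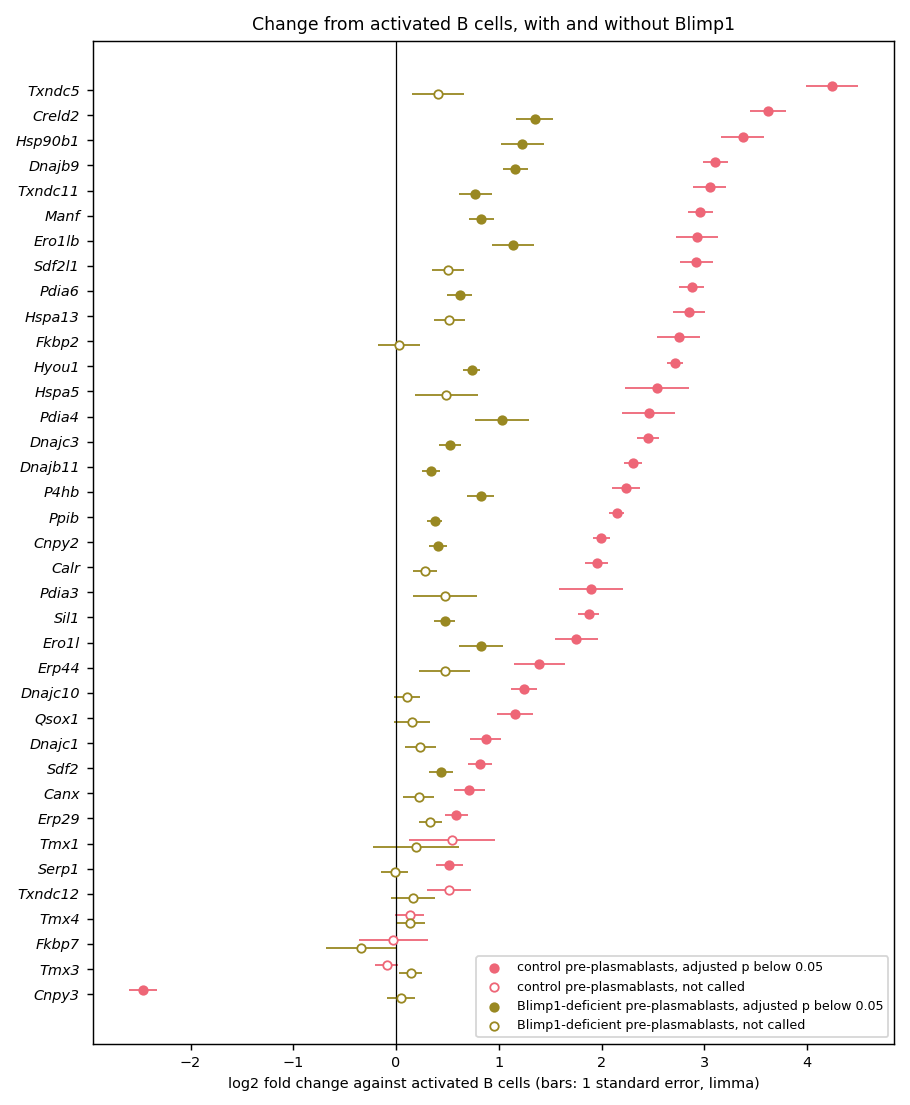
Log2 fold change from activated B cells for each of the 37 tested members (rows, ordered by the change in control pre-plasmablasts), in control pre-plasmablasts (pink) and Blimp1-deficient pre-plasmablasts (olive); bars are 1 SE, filled points passed limma's adjusted p below 0.05, and both series share the activated libraries. Control points reach 4.24 for Txndc5, deficient points reach 1.35 for Creld2, and for Cnpy3 the control point is at -2.46 and the deficient one at 0.05.

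Other measures differed along with Blimp1 status. The gate required high CD22, and Cd22 was at 345 and 309 RPKM in the deficient libraries and 28.5 and 38.3 in the controls. The 10 antibody-secreting cell markers summed to between 508 and 646 RPKM in the deficient and 3859 and 5862 in the control cells, with 9 of 10 called lower. They include Prdm1, the targeted gene itself. The 10 B cell markers, among them Cd22, on which the gate selected, summed to between 4726 and 4951 RPKM against 2380 and 2551. Of these 10, 7 were called higher and 1 lower. Of the 9 T cell markers 3 were in these values, at a sum of 259 to 305 RPKM against 62.4 to 67.1 and all 3 called higher. Of the 10 myeloid markers 2 were present, at 28.2 to 31.1 RPKM against 3.88 to 4.28, both called higher, and 3 erythroid genes summed to between 13.5 and 15 against 3.45 and 4.21. Of the immediate early and heat shock genes, 6 of 10 tested were lower, with none higher. The defining T cell gene Cd3e and the myeloid gene Lyz2 were not among the genes of these values. The part of other cells, of the gate and of handling in the results was not tested.

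Genes that act beside the folding machinery were called in the same directions in most cases. Of 9 tested genes of glycan-dependent quality control, all 9 were called higher in pre-plasmablasts than in activated B cells and all 9 lower without Blimp1 (medians 1.49 and -1.15). Lman1, a lectin cargo receptor, went from 18.2 and 20.9 RPKM in activated B cells to 192 and 175 in pre-plasmablasts and stood at 30.9 and 32.2 without Blimp1. Man1b1, a mannosidase that marks misfolded glycoproteins, differed by 2.42 and -1.41 in the 2 comparisons. Of 20 ER-associated degradation genes, 18 were higher in pre-plasmablasts and 16 lower without Blimp1 (medians 1.72 and -1.23). Derl3, a derlin of the ER membrane, was at 19.4 and 26.2, 489.9 and 530.5 and 93.9 and 103 RPKM in activated, control and deficient cells, and Edem1, a mannosidase-like lectin, at 29.2 and 37.7, 402 and 379.7 and 107 and 114.

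Of 18 sensors and factors of the unfolded protein response, 13 were higher and 1 (Nfya) lower in pre-plasmablasts, and 13 were lower and 1 (Nfya) higher without Blimp1 (medians 0.91 and -0.72). Nfya, a subunit of the CCAAT-binding factor NF-Y, was named after its values were seen. Xbp1 was at 44 and 82.5 RPKM in activated B cells, 1156 and 1443 in pre-plasmablasts and 113 and 161 without Blimp1. Its changes were 4.40 ± 0.31 to pre-plasmablasts (adjusted p = 8.39e-05) and -3.25 ± 0.31 without Blimp1 (adjusted p = 0.00043), and its RPKM does not tell spliced from unspliced transcript. Creb3l2, an ER membrane transcription factor, changed by 3.59 and -1.25, and Ern1 (IRE1), the kinase that splices Xbp1, by 2.73 and -1.10. Atf6 changed by 0.94 and -0.50, Atf4 by 1.16 and -1.42, and Ddit3 (CHOP) by 0.88 and -0.78.

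Chaperones and thiol enzymes outside the ER had medians near 0 or below it in pre-plasmablasts, where 20.2% of all genes were called higher and 28% lower. Of 38 cytosolic chaperones tested, 3 were called higher (Hspb1, Bag3 and Hspa4l) and 16 lower in pre-plasmablasts, with a median of -0.31, and 12 were higher and 2 (Hspb1 and Dnajb1) lower without Blimp1, with a median of 0.30. Dnajc7, a cytosolic J-domain protein, was at 92.5 and 129.5 RPKM in activated B cells, 40.3 and 63.7 in pre-plasmablasts and 187 and 254 without Blimp1. Hspb1, a small heat shock protein, was at 0 and 0.625, 5.71 and 5.23 and 0.863 and 1.69 RPKM. Of 13 mitochondrial chaperones, 2 were higher (Grpel2 and Dnaja3) and 3 lower (Hscb, Hspd1 and Trap1) in pre-plasmablasts, with a median of -0.04, and without Blimp1 2 were higher (Hscb and Hspd1) and 1 lower (Grpel2). Of 14 thiol enzymes of the cytosol and mitochondria, 3 were higher (Glrx, Txnl1 and Nxn) and 2 lower (Txn2 and Txnrd2), with a median of 0.09. Without Blimp1 4 of the 14 were lower (Glrx, Txnl1, Nxn and Txn1) and 1 higher (Txn2), with a median of 0.07, where 16.1% of all genes were called lower and 24.4% higher. The shares called higher in pre-plasmablasts were 7.89% of the cytosolic, 15.4% of the mitochondrial and 21.4% of the thiol list. Genes named for these 3 lists beyond the 2 with the largest change of each were added after their values were seen. These medians stand beside 2.00 for the ER members and -0.12 for all genes, and no test was made between lists.

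**Figure D4:**
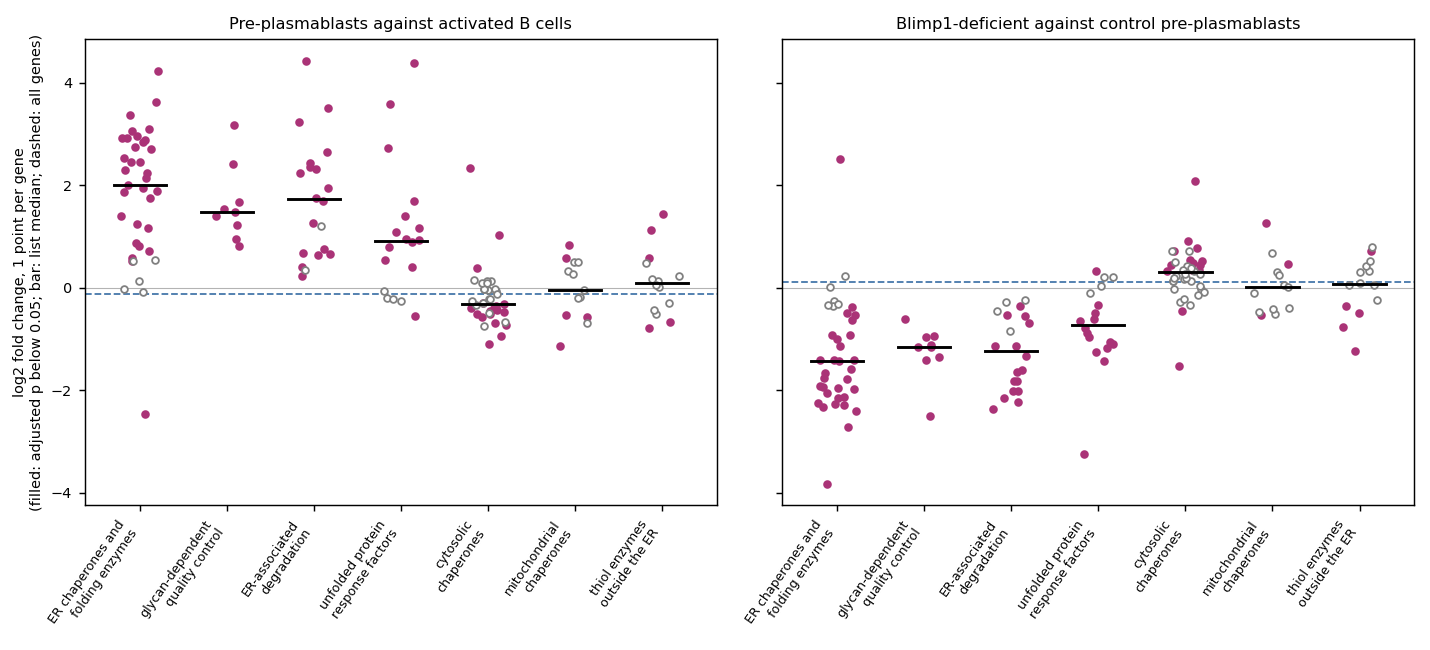
Log2 fold change of each tested gene (points) in the ER folding list and 6 other lists, for pre-plasmablasts against activated B cells (left) and Blimp1-deficient against control pre-plasmablasts (right); filled points passed limma's adjusted p below 0.05, black bars are list medians and the dashed line is the median of all genes. On the left the ER lists lie mostly above 0, the cytosolic list mostly below it (8 of 38 above 0), and the mitochondrial and thiol lists around it. On the right the ER lists lie mostly below 0.

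Few ER folding genes were called under GSK343. Of 36 members tested, 2 were called higher and 2 lower, where 12.7% of all 9479 genes were called higher and 5.86% lower (18.6% either way). The median was -0.02 over the members and 0.02 over all genes, and 13 members had an unadjusted limma p below 0.05, of which 5 were higher, as against 2978 of all genes, 1875 of them higher. The sum of the members was 22638 ± 839 RPKM (SD, n = 2) with DMSO and 23081 ± 891 with GSK343. Hspa5 was at 1132 and 1129 and then 1261 and 1266 RPKM (0.16 ± 0.08, adjusted p = 0.215), Hsp90b1 at 954 and 1075 and then 1053.5 and 1053 (0.06), and Txndc5 at 1551 and 1345 and then 1496 and 1619 (0.11, adjusted p = 0.507). Calr was higher with GSK343 in both libraries, 4489 and 4812 against 3885 and 3670.0 RPKM, without passing (adjusted p = 0.0679).

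Cnpy3 had the largest change under GSK343. It was at 5.45 and 6.04 RPKM with DMSO and 12.9 and 14.2 with GSK343, without overlap, a rise of 1.11 ± 0.12 (SE, limma adjusted p = 0.000104). The treated level stayed under the levels of activated B cells, though those values were normalized separately. Ero1lb fell from 142 and 119 to 89.4 and 88.2 RPKM, by 1.46-fold (adjusted p = 0.00219). Qsox1 rose from 34.6 and 31 to 40.1 and 44.3 RPKM (adjusted p = 0.0242) and Cnpy2 fell from 423 and 432 to 346 and 371 (adjusted p = 0.0469), in each case without overlap between the groups. The calls of Cnpy2 and Qsox1 were lost when single libraries were left out (adjusted p up to 0.272 and 0.210), which brought the count to between 2 and 5. Without the first or the second GSK343 library it was 2.

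Of the genes beside the folding machinery, Atf4 fell under GSK343 from 625 and 679.9 to 424 and 448 RPKM (-0.58 ± 0.08, adjusted p = 0.000702), and Ppp1r15a and Trib3, both known ATF4 pathway genes, were also called lower. That made 3 of 18 unfolded protein response genes lower and none higher. Of 20 degradation genes 4 were lower (Derl1, Herpud1, Nploc4 and Ubxn4). Prkcsh was the 1 of 9 glycan quality control genes called, and was lower. All of these but Atf4 were named after their values were seen. Other factors of the response were not called by limma: Xbp1 (-0.22, adjusted p = 0.13), Ddit3 (-0.15, adjusted p = 0.247), Atf6 (-0.16, adjusted p = 0.277) and Ern1 (-0.08, adjusted p = 0.723). Whether the ATF4 pathway as a whole changed was not tested. GSK343 acts on the EZH2 protein, so the level of Ezh2 RNA, at 25.5 and 32.2 RPKM with DMSO and 36.7 and 35 with GSK343, checks nothing about the treatment. The 10 antibody-secreting cell markers summed to between 4082 and 4387 RPKM with GSK343 and 4699 and 4972 with DMSO, while 3 of the 10 were called higher and 2 lower. Sdc1 was among those called higher, from 3.01 and 2.57 to 7.27 and 8.75 RPKM. The sum of 6 erythroid genes was between 21.8 and 32.7 RPKM against 11.5 and 14.7. Their part in these results was not tested.

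**Figure D5:**
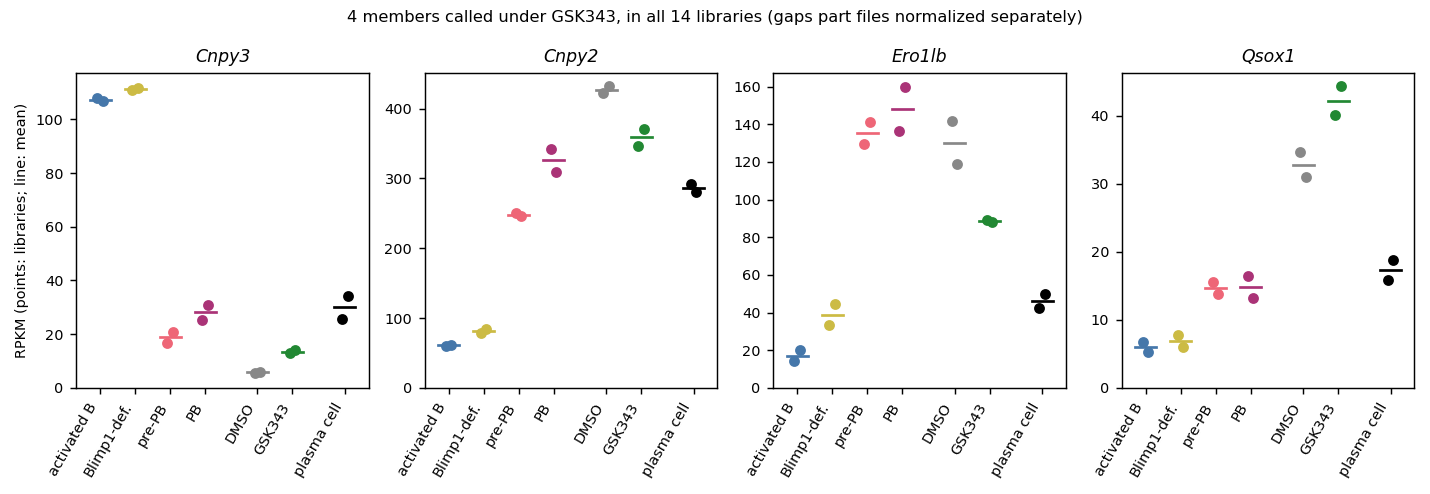
RPKM of the 4 members called under GSK343 in all 14 libraries (points; lines are group means, axes start at 0), with gaps between values that were normalized separately. Cnpy3 stands highest in activated (108 and 107) and Blimp1-deficient (111 and 112) cells and goes from 5.45 and 6.04 RPKM with DMSO to 12.9 and 14.2 with GSK343.

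Plasma cells taken from mice are given beside the cultured cells without a test, since their values were normalized separately. The members summed to 19217 ± 960 RPKM (SD, n = 2), and their median was 182 RPKM. Txndc5 was the highest member. It was at 5246 and 4632 RPKM, 28.3% and 23.3% of the members' sum. Among the 11391 genes common to all libraries it ranked 5 in both. In activated B cells it ranked 1685 and 885 among the same genes. Hsp90b1 was at 1920.0 and 2377 RPKM, Calr at 1623 and 1914.5, Serp1 at 1192.5 and 1217, Hspa5 at 859.7 and 1104 and Pdia4 at 879 and 1115. The ratio of Txndc5 to Hspa5 was 5.15 in plasma cells, against 0.267 in activated B cells, 0.902 in pre-plasmablasts, 1.38 in plasmablasts, 1.28 in DMSO-treated and 0.252 in Blimp1-deficient pre-plasmablasts. Ratios between genes also differed between values normalized separately: for pre-plasmablasts, Calr to Canx was 12.6 in the GC-normalized values and 28.3 in the DMSO libraries, and Hsp90b1 to Hspa5 was 1.55 and 0.897. The ratio of Fkbp2 to Ppib, both prolyl isomerases, was 3.96 in plasma cells and between 0.477 and 1.29 in the 6 cultured groups.

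Pdia5, under 1 RPKM in every cultured library, was at 4.33 and 4.21 RPKM in plasma cells. Fkbp14 at 0.73 and 0.581 and Fkbp7 at 0.882 and 0.655 stayed under 1 RPKM there. Sil1 was at 177 and 173 RPKM and Txndc11 at 372 and 367. Cnpy3 was at 25.8 and 34.2 RPKM. Erp29 was at 269 and 267 RPKM, Ppib at 212 and 212, Pdia6 at 473 and 541 and Ero1lb at 42.4 and 50.1, against 142 and 119 for Ero1lb in the DMSO libraries. These are levels in separately normalized values and are not differences. Myeloid markers summed to between 43.1 and 91.9 RPKM in the plasma cell libraries, with Lyz2 at 9.96 and 6.24 RPKM, and Hbb-b1, a red blood cell gene, was at 48.8 and 27.2 RPKM. Their part in the levels was not tested.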

How the data were processed

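Expression was read from 14 RNA libraries (50-nt strand-specific reads, per the labels) as RPKM values that the authors deposited per gene, so read depth is unknown. The first 8 libraries (the differentiation and Blimp1 experiment) were deposited as GC-normalized RPKM, by their names, and the method is not stated. The submitters' processing notes list the build mm9 with SICER, DESeq 1.8.3, HTSeq 0.5.3 and TopHat 1.4.1. What each was used for, the annotation and the strand setting were not given in the sources used here. Symbols listed more than once were left out (61 names in the first 8 libraries, 166 in the others). In the plasma cell files, 5 read-counter names were dropped so that names and values line up, and letters were restored in 363 names, a step chosen after seeing the names.

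Values were tested as log2(RPKM + 1) with limma 3.58.1 in R 4.3.3 (lmFit, eBayes with trend), keeping genes of at least 1 RPKM in at least 2 libraries. The first 8 libraries shared 1 fit, the 4 inhibitor libraries had another, and plasma cells were not tested. The tests were also run on simulated data in which libraries varied independently. Deviations shared within a library-number series were not simulated, so that run cannot judge the calls made here. Members and lists were chosen with earlier results of these data known. Named were the members, the 2 called genes with the largest change in each other list, Xbp1, Ern1, Atf6, Atf4, Ddit3, Derl3 and a few defining markers. Promoters came from RefSeq (GRCm38.p6), and protein sequences were not used here. Alternatives were another pseudocount, filter, scaling and fit, the library series as a block, and leaving out each library.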

Additional observations from a re-analysis of the deposited data

How the results depend on the processing

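Member counts stayed within 1.5 times their value under the alternatives run in 3 comparisons: 31 to 34 for pre-plasmablasts against activated B cells (31 to 32 on leaving out single libraries), 30 to 34 for plasmablasts against activated B cells and 26 to 35 for Blimp1-deficient against control pre-plasmablasts. No called value reversed. Of 3530 values of single genes under an alternative, 3366 kept their side of the threshold, 112 lost and 52 gained a call, and 76 that were not called changed sign. For plasmablasts against pre-plasmablasts, with 0 called and 0 to 0 on leaving out single libraries, the count was 1 (Sil1) with a pseudocount of 5, 1 with median-of-ratios scaling, 1 after scaling to the same summed RPKM, and 19 when the series of library numbers was a replicate block. For Blimp1-deficient cells against activated B cells, with 17 called, it was 28 with the block, 10 with only these groups in the fit, and 5 to 15 on leaving out single libraries. For GSK343, with 4 called, it was 2 without the filter, 2 without the mean-variance trend and 2 to 5 on leaving out single libraries. The labels give no replicate numbers, so the series pairs libraries by number only. Deviations of same-series libraries from their group means correlated at 0.666 to 0.781 across genes. Over all genes, the block called 2128 against 245 (plasmablasts against pre-plasmablasts), 6829 against 4234 (deficient against control) and 4477 against 1885 (deficient against activated). Only the groups compared gave 1 in place of 245 and 1200 in place of 1885, and leaving out single libraries gave as few as 23 and 719. GSK343's 1763 fell to 800 and 747 without its first and second library. Median-of-ratios scaling moved the share of called genes that were higher from 30.6% to 42.4%, 38.6% to 51.4% (plasmablasts against activated), 60.3% to 47.5% (deficient against control) and 68.5% to 55.1% (GSK343), and the median of all genes from -0.18 to -0.01, from -0.12 to -0.02 (pre-plasmablasts against activated) and from 0.12 to 0.00. The median plasma cell level of the members, 182 RPKM, was 0.845 with the names as deposited and 212.2 with names moved back but letters not restored. Other than the fewer libraries or genes in a fit, the cause of these shifts was not tested. Read depth is unknown, so no limit from depth could be given for single values.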
